A study of Homo sapiens with 9 samples.

Results

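Connexins and pannexins are the subunits of the channels described here, and 5 genes of these families were followed: GJA1 (connexin 43), GJB5 (an epidermal connexin), GJC1 (connexin 45), PANX1 and PANX2. They were taken by symbol from the 58884 genes of a deposited count table, and were chosen with earlier results of these data known. Connexins assemble into hemichannels in the plasma membrane, and hemichannels of touching cells dock into gap junctions that pass ions, second messengers and other small molecules from cytoplasm to cytoplasm. Pannexins share this membrane topology but mostly form single-membrane channels, of which PANX1 is best known for releasing ATP. Connexin 43 is expressed by breast myoepithelial cells and by astrocytes, and contacts between carcinoma cells and astrocytes through it have been studied in brain metastasis.

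RNA-seq was performed on 3 forms of the human triple-negative breast cancer line MDA-MB-231: the parental cells (Par), a lung metastatic sub-population (LM2) and a brain metastatic sub-population (BrM2), the metastatic forms having been selected in mice from the parental line. All were grown as monolayers in DMEM with serum and antibiotics, without other treatment, so the cells carry what selection left in culture and were not taken from a lung or a brain. Each line had 3 replicates, harvested at different passages, and each metastatic line is a single selected population, so differences describe these populations and not lung or brain tropism at large. The comparisons ask how channel gene expression in LM2 and in BrM2 differed from Par, and how the metastatic lines differed from each other. The first 2 of them use the same Par libraries.

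The libraries held 14371858 to 24511786 counts on genes. A filter on low counts kept 13055 genes, which held 99.64% to 99.78% of the counts of each library. Values are given as CPM, the read counts of a gene scaled to a common normalised library size, and 3 counts in a library, the floor used here, were worth 0.115 to 0.221 CPM. Replicate 1 stood apart from replicates 2 and 3 in every line. Across 11825 genes with a mean of at least 50 counts, the difference in log2 CPM between replicate 1 and the other two rose with the GC content of the longest transcript (Spearman's rho 0.814, a description across genes of the same 9 libraries). Results are therefore also given with the replicate number as a block in the model and without replicate 1. As for cell identity, the labels call the cells breast epithelial, and KRT8 was abundant (306 to 1183 CPM), but the epithelial cadherin CDH1 was at 0.144 to 1.94 CPM. The 8 epithelial markers summed to 1150 to 2222 CPM in Par, 622 to 1676 in LM2 and 767 to 1707 in BrM2, and of the 6 that passed the filter edgeR called KRT19 and CLDN4 lower in LM2 than in Par, CLDN4 lower in BrM2 than in Par, and both higher in BrM2 than in LM2. The 6 mesenchymal markers summed to 1571 to 1843 CPM in Par, 2635 to 3065 in LM2 and 1617 to 2168 in BrM2, with TWIST1 at 0 in every line. Of the 4 that passed the filter, VIM was called higher in both metastatic lines than in Par (725 ± 137 CPM in Par, 1537 ± 293 in LM2 and 1502 ± 291 in BrM2, SD, n = 3). FN1 was called lower in BrM2 than in either other line (886 ± 140 CPM in Par, 1131 ± 19.1 in LM2 and 290 ± 16.7 in BrM2). The part of these markers in the results was not tested. The 10 markers of immune, endothelial, astrocyte, neuronal, alveolar and liver cells summed to 9.18 to 23.8 CPM, and 5 of them, which did not include the astrocyte gene GFAP, never exceeded 3 counts. GFAP, at 5.52 to 21.3 CPM, made up much of this sum, beside PECAM1 at 2.08 to 7.19 CPM. GFAP was at 13.5 ± 3.77 CPM in Par, 13.0 ± 7.14 in LM2 and 7.08 ± 1.98 in BrM2 (SD, n = 3). With the block, GFAP was called lower in BrM2 than in either other line. PECAM1 was called lower in LM2 and in BrM2 than in Par. The part of these genes in the results was not tested.

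Of the 5 members, only GJA1 and PANX1 passed the filter on low counts. PANX2 was detected in every library with 6 to 30 counts. GJC1 reached 4 counts at most and GJB5 1 count, so they were at or near the floor and no fold was computed for them. In the whole table there were 24 connexin and pannexin genes. Of these, 6 were at 0 in all libraries, 10 had 1 to 3 counts at most, and 8 exceeded 3 counts in some library. GJA1, GJA3, GJB2, GJC1, PANX1 and PANX2 were among the 8.

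GJA1 RNA was higher in BrM2 than in Par by 4.10-fold, and this was the only difference of a member past the threshold in edgeR on the filtered genes without the replicate number. With the replicate number as a block, GJA1 also rose in LM2, by 2.83-fold, and was higher in BrM2 than in LM2 by 1.41-fold. PANX1, the more abundant pannexin, kept similar levels in the 3 lines and passed the threshold in no comparison and no fit. PANX2 was low in each line and did not pass either. In bulk RNA, a larger share of cells with GJA1 RNA and more of it per cell cannot be told apart. Thus 0 of the members in LM2 against Par, 1 in BrM2 against Par and 0 in BrM2 against LM2 were called, where 8.69%, 13.3% and 8.1% of the 13055 tested genes were. At an unadjusted p under 0.05, edgeR gave 1 member in LM2 against Par (GJA1) and 0 in BrM2 against LM2, and DESeq2 called 1 and 0. With the block, 1 member (GJA1) was called in each of the comparisons, against 34.5%, 42.7% and 37.5% of the tested genes, so a call in that fit was common in the transcriptome.

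GJA1 encodes connexin 43, the most widely expressed connexin, and lies on chromosome 6 (GRCh38.p14, chr6:121435646-121449727, forward strand). Its 67, 133 and 201 counts in Par replicates 1 to 3 corresponded to 3.52, 6.44 and 7.90 CPM. In LM2 they were 201, 418 and 614 counts, or 9.99, 17.1 and 23.5 CPM. BrM2 had 151, 725 and 630 counts, or 11.1, 32.0 and 30.2 CPM. Every LM2 and BrM2 library was above every Par library, and replicate 1 was the lowest of each line, so that the LM2 and BrM2 ranges overlapped. Libraries without overlap were seen for 25.2% of tested genes between LM2 and Par, for 31.3% between BrM2 and Par and for 23.1% between BrM2 and LM2. The mean level was 5.95 ± 2.23 CPM in Par, 16.9 ± 6.77 in LM2 and 24.4 ± 11.6 in BrM2 (SD, n = 3). The means of LM2 and BrM2 differed by more than the SD of LM2 and by less than that of BrM2.

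**Figure D1:**
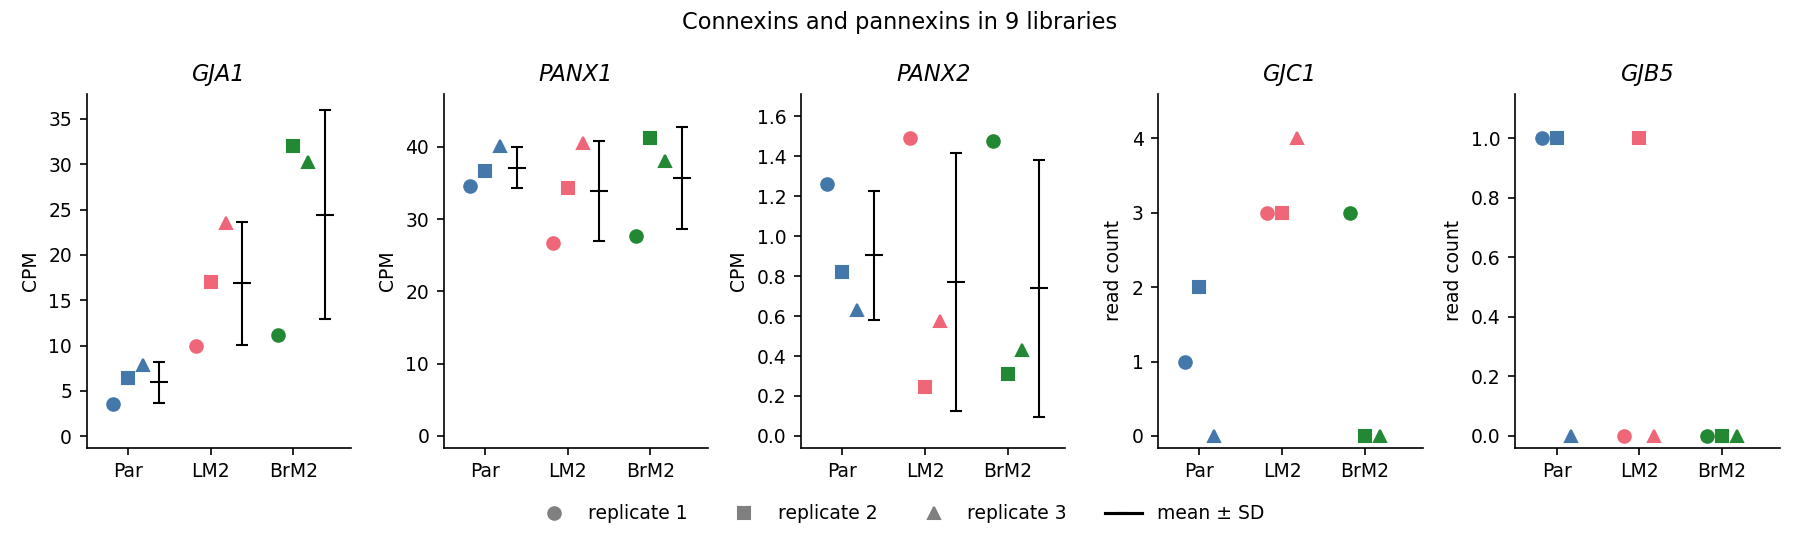
Level of the 5 genes in each of the 9 libraries, in CPM for GJA1, PANX1 and PANX2 and in read counts for GJC1 and GJB5, with the replicate number given by the symbol and, for CPM, the mean and SD of the 3 replicates as a bar. GJA1 is at 3.52 to 7.90 CPM in Par and at 9.99 or above in all other libraries, with replicate 1 lowest in each line, while PANX1 stays between 26.7 and 41.2 CPM.

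The log2 fold change of GJA1 between BrM2 and Par was 2.04 (SE 0.494, 95% interval 0.92 to 3.16, edgeR adjusted p = 0.0262). With the replicate block it was 2.0 (SE 0.176, edgeR adjusted p = 9.11e-06). Between LM2 and Par it was 1.50 (SE 0.487, 95% interval 0.40 to 2.60, edgeR adjusted p = 0.105), and with the block 1.50 (SE 0.175, edgeR adjusted p = 9.01e-05). The size of this difference did not move with the fit, and its standard error became smaller with the block. The difference between BrM2 and LM2 was 0.54 (SE 0.474, 95% interval -0.53 to 1.61, edgeR adjusted p = 0.610), with the block 0.50 (SE 0.165, edgeR adjusted p = 0.0363).

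The ratios of libraries with the same replicate number show what the block compares. The sources used here do not say whether libraries of the same number were handled together. LM2 held 2.84, 2.65 and 2.98 times the Par level of GJA1 in replicates 1, 2 and 3. BrM2 held 3.17, 4.97 and 3.82 times the Par level. BrM2 held 1.12, 1.88 and 1.28 times the LM2 level. All 9 ratios were above 1, and those of LM2 to Par were the closest to each other. Within a line, replicate 1 of GJA1 was at 0.491 (Par), 0.492 (LM2) and 0.358 (BrM2) of the mean of replicates 2 and 3. Without replicate 1 in any line, the log2 fold changes were 1.50 for LM2 (edgeR adjusted p = 0.000990) and 2.13 for BrM2 (edgeR adjusted p = 0.000135) against Par, and 0.63 for BrM2 against LM2 (edgeR adjusted p = 0.0307). Without replicate 2 of every line GJA1 was called in no comparison (edgeR adjusted p = 0.652, 0.381 and 0.959 for LM2 and BrM2 against Par and BrM2 against LM2), and neither was it without replicate 3 (edgeR adjusted p = 0.513, 0.197 and 0.934).

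Without the block, the call of GJA1 in BrM2 was lost when 1 of 5 libraries was left out. These were Par replicate 1, 2 or 3 (edgeR adjusted p = 0.0858, 0.0915 and 0.0537) and BrM2 replicate 2 or 3 (edgeR adjusted p = 0.0818 and 0.0947), and the log2 fold change stayed between 1.77 and 2.38. In LM2 the call was gained without BrM2 replicate 1 (edgeR adjusted p = 0.0451), a library outside that comparison which enters through the shared spread. DESeq2 (adjusted p = 0.0147) and edgeR on all genes with at least 1 count (adjusted p = 0.0167) also called it in LM2. In the latter, 4.4% of 34056 genes were called in LM2, 6.36% in BrM2 against Par and 4.25% in BrM2 against LM2. For a single gene, the exact 2-sided permutation test of 3 against 3 libraries cannot give less than 0.10, which it gave for GJA1 in LM2 and in BrM2 against Par (exact p = 0.50 for BrM2 against LM2).

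**Figure D2:**
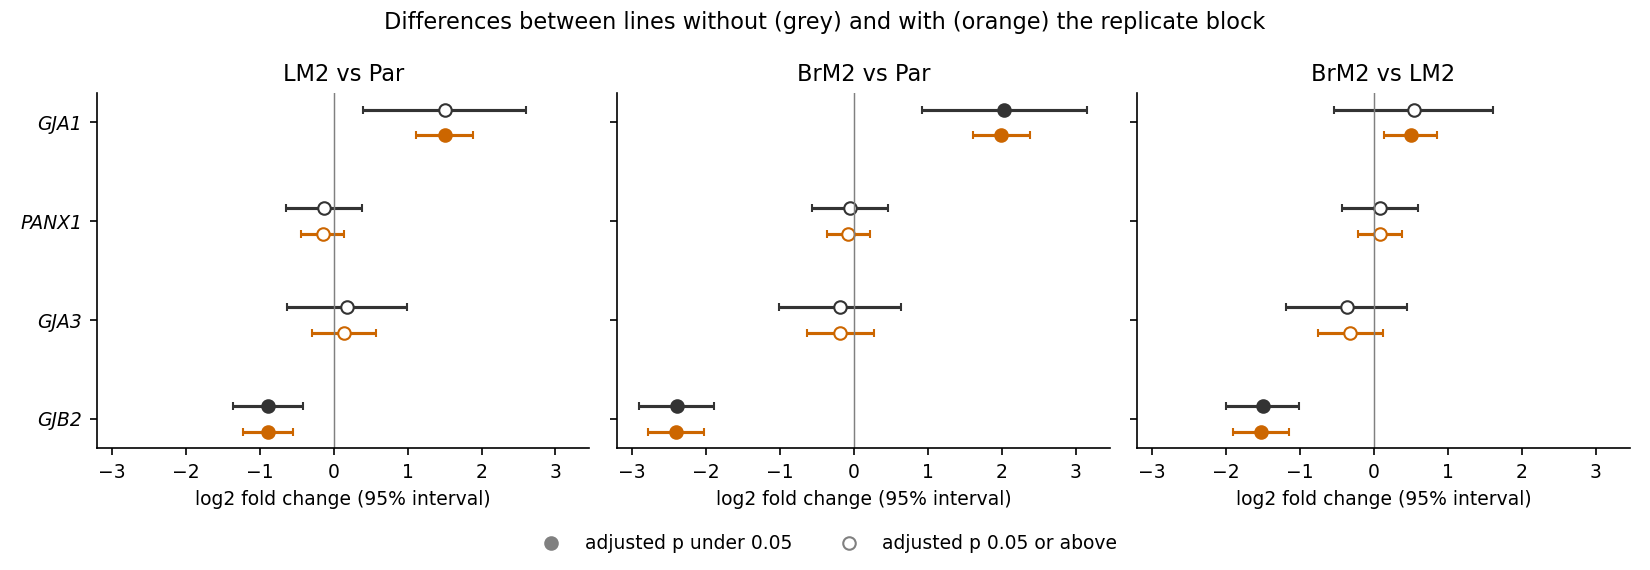
Log2 fold change with 95% interval of GJA1, PANX1, GJA3 and GJB2 in the 3 comparisons, from edgeR without (grey) and with (orange) the replicate number as a block, with filled points for an adjusted p under 0.05. The GJA1 estimate in LM2 is 1.50 in both fits and is filled only with the block, GJB2 is filled and below 0 in all comparisons, and PANX1 lies near 0 throughout.

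PANX1, the ATP release channel, lies on chromosome 11 (GRCh38.p14, chr11:94128841-94181968, forward strand). It had 34.5, 36.6 and 40.1 CPM in Par replicates 1 to 3. LM2 had 26.7, 34.3 and 40.5 CPM, and BrM2 27.7, 41.2 and 38.0 CPM. All lines overlapped, and the means were 37.1 ± 2.83, 33.8 ± 6.92 and 35.6 ± 7.06 CPM (SD, n = 3). They differed by less than the SD of LM2 or of BrM2, while the means of Par and LM2 differed by more than the SD of Par. The log2 fold change was -0.13 for LM2 (95% interval -0.65 to 0.38, edgeR adjusted p = 0.848) and -0.06 for BrM2 against Par (95% interval -0.57 to 0.46, edgeR adjusted p = 0.931). For BrM2 against LM2 it was 0.08 (95% interval -0.44 to 0.59, edgeR adjusted p = 0.905). With the block the intervals were -0.45 to 0.14, -0.37 to 0.22 and -0.22 to 0.37. Replicate 1 was at 0.899, 0.714 and 0.699 of the other replicates in Par, LM2 and BrM2.

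PANX2, a pannexin best known from the nervous system, lies on chromosome 22 (GRCh38.p14, chr22:50170731-50180295). It was counted 24, 17 and 16 times in Par, 30, 6 and 15 times in LM2 and 20, 7 and 9 times in BrM2. These are 0.904 ± 0.324, 0.770 ± 0.645 and 0.739 ± 0.642 CPM (SD, n = 3). In contrast to GJA1 and PANX1, replicate 1 was the highest of every line, at 1.74, 3.64 and 3.99 times the mean of the other replicates. The transcripts of PANX2 had 66.3% GC, those of PANX1 49.5% and those of GJA1 40.4%, so the genes fell in the order of GC content that was seen across the transcriptome. Whether GC content sets these levels was not tested. In the fit on all genes with at least 1 count, the log2 fold change of PANX2 was -0.23 for LM2 and -0.37 for BrM2 against Par and -0.14 for BrM2 against LM2 (edgeR adjusted p = 0.943, 0.811 and 0.993), with intervals as wide as -1.56 to 0.81. At 6 to 30 counts, a difference within these intervals was not detectable.

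GJC1, connexin 45 of cardiac, vascular and neuronal cells, lies on chromosome 17 (GRCh38.p14, chr17:44794104-44831364). It had 1, 2 and 0 counts in Par, 3, 3 and 4 in LM2 and 3, 0 and 0 in BrM2. Only LM2 replicate 3 was above the floor of 3 counts. GJB5, a connexin of stratified epithelia, lies on chromosome 1 (GRCh38.p14, chr1:34755047-34758512). It had 1, 1 and 0 counts in Par, 0, 1 and 0 in LM2 and 0 in all BrM2 libraries, where the floor allows up to 0.132 to 0.221 CPM. A difference between lines was not detectable for either at this depth.

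GJB2 moved opposite to GJA1. It encodes connexin 26, a gap junction protein of mammary luminal and other epithelia, and was lower in LM2 than in Par and lower again in BrM2. It had 18.9, 16.6 and 16.7 CPM in Par, 9.29, 9.59 and 9.15 CPM in LM2 and 4.13, 2.74 and 3.07 CPM in BrM2. No library of one line overlapped with another line, and replicate 1 was at 1.13, 0.991 and 1.42 times the mean of replicates 2 and 3, although the GC content of the longest transcript, 42.6%, was close to that of GJA1. GJB2 fell by 0.89 on the log2 scale in LM2 (SE 0.209, edgeR adjusted p = 0.0304) and by 2.40 in BrM2 (SE 0.222, edgeR adjusted p = 0.000241) against Par. BrM2 was below LM2 by a log2 fold change of -1.50 (SE 0.217, edgeR adjusted p = 0.00328). All of these calls were made with the block and without replicate 1 too.

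GJA3, connexin 46 of the eye lens, had 4.26 to 6.88 CPM in Par, 3.53 to 8.77 in LM2 and 4.36 to 6.13 in BrM2, with overlap of all lines. It was not called by edgeR, with or without the block, and fits that left out libraries were not run for it. Its log2 fold change was 0.18 in LM2 and -0.19 in BrM2 (edgeR adjusted p = 0.876 and 0.838). GJA3 and GJB2 are neighbours on chromosome 13 (GRCh38.p14, chr13:20138255-20161565 and chr13:20187470-20192938), yet GJB2 was called and GJA3 was not. A difference between these genes in response was not tested.

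**Figure D3:**
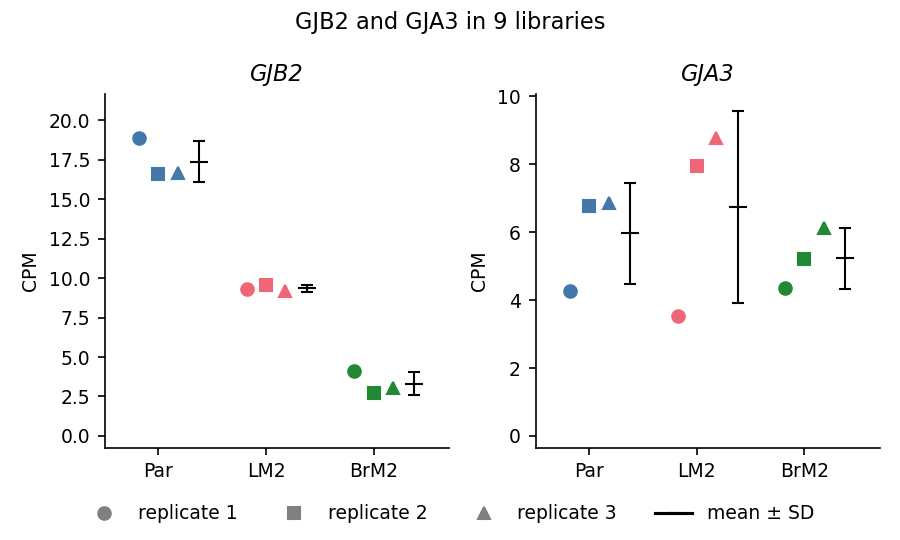
Level of GJB2 and GJA3 in each of the 9 libraries, in CPM, with the replicate number given by the symbol and the mean and SD of 3 replicates as a bar. GJB2 falls in steps without overlap from Par to LM2 to BrM2, and the lines overlap for GJA3.

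Promoter sequence is shown for GJA1 and GJB2, the connexins that moved in opposite directions, and for PANX1, which did not pass the test. RefSeq promoters on GRCh38.p14 were at hand for 2 of the 5 members (GJA1 and PANX1), and for GJB2. Each line gives the 250 bases before the gene start, 5′ to 3′ on the gene's strand, at chr6:121435396-121435645 (forward strand) for GJA1, chr11:94128591-94128840 (forward strand) for PANX1 and chr13:20192939-20193188 (reverse strand) for GJB2. Capitals mark matches on either strand to the AP-1 motif TGANTCA or to the GC box GGGCGG.
GJA1: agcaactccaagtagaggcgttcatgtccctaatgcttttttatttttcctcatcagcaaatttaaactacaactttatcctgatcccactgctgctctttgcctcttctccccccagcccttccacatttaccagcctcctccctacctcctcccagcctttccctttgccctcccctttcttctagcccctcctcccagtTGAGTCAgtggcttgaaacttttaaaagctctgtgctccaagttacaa
PANX1: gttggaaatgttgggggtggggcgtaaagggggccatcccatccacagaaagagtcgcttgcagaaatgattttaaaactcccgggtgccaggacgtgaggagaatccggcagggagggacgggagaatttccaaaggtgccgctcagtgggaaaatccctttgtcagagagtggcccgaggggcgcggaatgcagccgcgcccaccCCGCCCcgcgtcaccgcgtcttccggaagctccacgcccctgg
GJB2: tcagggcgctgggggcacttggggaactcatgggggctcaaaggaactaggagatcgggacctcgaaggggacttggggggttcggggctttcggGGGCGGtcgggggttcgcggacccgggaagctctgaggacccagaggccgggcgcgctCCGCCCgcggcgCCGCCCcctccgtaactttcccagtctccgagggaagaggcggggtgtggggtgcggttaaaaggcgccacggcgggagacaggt

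The GJA1 window held 1 AP-1 match, which starts 48 bases before the gene start, and no GC box. AP-1 matches were found in 6.57% of 35116 promoter windows of the same length. The GJB2 window held 3 GC boxes and the PANX1 window 1, and 42.6% of all windows held at least 1. None of the 3 had the TATA box TATAAA, which 10.7% of all windows had. The GJA1 window had 48.0% GC and 1 CpG, against 62.0% GC and 19 CpG for PANX1, 70.0% GC and 25 CpG for GJB2, and medians of 58.0% and 11 over all windows. A match describes the letters only, and binding was not measured here.

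Levels of different genes were set side by side after division by transcript length. This division does not correct for GC content, and which transcript was expressed was not determined. Per kb of the longest annotated transcript, GJB2 was at 7.49 ± 0.556 CPM per kb in Par and GJA1 at 1.93 ± 0.723 (SD, n = 3). In LM2, GJB2 was at 4.03 ± 0.0957 and GJA1 at 5.47 ± 2.20 CPM per kb, and in BrM2 GJB2 was at 1.43 ± 0.315 and GJA1 at 7.93 ± 3.75. The ratio of GJA1 to GJB2 per kb was 0.140, 0.292 and 0.356 in Par, 0.808, 1.34 and 1.93 in LM2 and 2.03, 8.79 and 7.40 in BrM2, so GJB2 was above GJA1 in all Par libraries and below it in all BrM2 libraries. This pair was chosen after its values were seen, and the ratio is a description without a test.

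Over the summed length-scaled level of all 21 connexins, GJA1 made up 16.5% ± 6.14 in Par, 46.8% ± 9.24 in LM2 and 71.3% ± 15.0 in BrM2, and GJB2 64.0% ± 4.70, 36.8% ± 8.87 and 15.5% ± 9.70 (SD, n = 3). The sum itself was 11.7 ± 0.0828 CPM per kb in Par, 11.4 ± 2.53 in LM2 and 10.6 ± 3.43 in BrM2, means that lay within the spread of LM2 and BrM2. PANX1 made up 97.7% ± 0.947 of the length-scaled pannexin level in Par, 97.6% ± 2.19 in LM2 and 97.8% ± 2.24 in BrM2. These are levels of RNA, and neither protein nor channel activity was measured here.

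**Figure D4:**
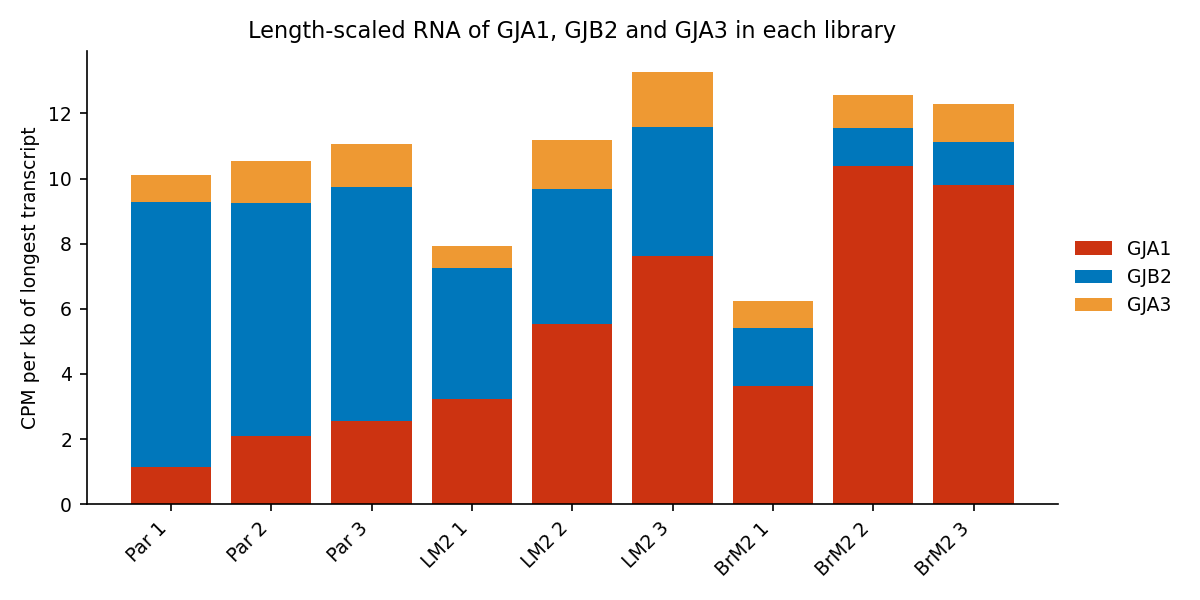
Length-scaled level of GJA1, GJB2 and GJA3 in each library, stacked, in CPM per kb of the longest annotated transcript. GJB2 is the largest part of all Par libraries and GJA1 the largest part of all BrM2 libraries, and the stack is lowest in replicate 1 of LM2 and BrM2.

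Proteins that scaffold, traffic or degrade connexins were the next group, with 12 of 15 genes past the filter. Of these 12, 1 (PCDH7) was called in LM2, 2 (OCLN and CAV1) in BrM2 against Par and 1 (PCDH7) in BrM2 against LM2, where 8.69%, 13.3% and 8.1% of all tested genes were, so the calls were about as frequent as in the transcriptome. PCDH7, a protocadherin reported to act with connexin 43 at carcinoma-astrocyte contacts, was at 6.25, 8.61 and 7.23 CPM in Par, 15.5, 17.9 and 18.3 CPM in LM2 and 5.54, 6.05 and 5.66 CPM in BrM2. The LM2 libraries stood above all others. PCDH7 rose in LM2 with a log2 fold change of 1.23 (SE 0.201, edgeR adjusted p = 0.00577). In BrM2 it was -0.36 against Par (edgeR adjusted p = 0.332). OCLN, the tight junction protein occludin, rose in BrM2 with a log2 fold change of 1.51 (edgeR adjusted p = 0.0275), and CAV1, the main protein of caveolae, fell by 0.99 on the log2 scale (edgeR adjusted p = 0.0335). TJP1 (ZO-1), the scaffold that binds the tail of connexin 43, was not called, with log2 fold changes of -0.25 in LM2 and -0.10 in BrM2 against Par (edgeR adjusted p = 0.810 and 0.923). With the block, 5, 8 and 7 of the 12 were called, where 34.5%, 42.7% and 37.5% of all tested genes were, the ubiquitin ligase NEDD4 among those higher in LM2 and in BrM2 (log2 fold change 0.86 and 0.65, edgeR adjusted p = 0.00485 and 0.0163). The median log2 fold change of the group was 0.08, -0.08 and 0.00 in LM2 and BrM2 against Par and BrM2 against LM2, and that of all tested genes 0.01, -0.02 and -0.03.

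Of the kinases that phosphorylate connexin 43 or act upstream of these, all 12 passed the filter. Without the block, 2, 1 and 2 were called in LM2 and BrM2 against Par and BrM2 against LM2. The shares of all tested genes were 8.69%, 13.3% and 8.1%. These calls were on the protein kinase C isoforms PRKCA and PRKCE. PRKCE rose in both metastatic lines. It was at 29.5, 27.9 and 29.4 CPM in Par, 50.6, 52.3 and 48.0 CPM in LM2 and 85.9, 98.1 and 91.9 CPM in BrM2, without overlap of any lines. Its log2 fold change was 0.80 in LM2 and 1.67 in BrM2 against Par, and 0.87 in BrM2 against LM2 (edgeR adjusted p = 0.0133, 0.000266 and 0.00941). PRKCA was at 268 ± 30.7 CPM in Par, 426 ± 19.3 in LM2 and 270 ± 14.8 in BrM2 (SD, n = 3). It rose in LM2 with a log2 fold change of 0.67 (edgeR adjusted p = 0.0291) and was lower in BrM2 than in LM2 (-0.66, edgeR adjusted p = 0.0319). SRC, which phosphorylates the connexin 43 tail, had a log2 fold change of -0.82 in LM2 (edgeR adjusted p = 0.243, with the block 0.00190). The other 9 kinases were not called without the block, and the numbers of the 12 called with it were 4, 3 and 4, where 34.5%, 42.7% and 37.5% of all tested genes were called. Among the 9 was the protein kinase C isoform PRKCD, at 60.6 ± 12.9 CPM in Par, 49.8 ± 15.5 in LM2 and 44.8 ± 7.59 in BrM2 (SD, n = 3). PRKCD was called lower in BrM2 than in Par with the block.

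The genes that act on pannexin channels or on the ATP they release gave 10 of 15 past the filter, of which 3, 2 and 2 were called (5, 6 and 6 with the block) in LM2 and BrM2 against Par and BrM2 against LM2, beside the shares of all tested genes given above. Among nucleotide receptors, P2RY2, which binds ATP and UTP, fell by 2.27 in LM2 and fell by 1.48 in BrM2 on the log2 scale (edgeR adjusted p = 0.00383 and 0.0188). Its 20.0 to 26.1 CPM in Par stood above the 3.39 to 11.1 CPM of all LM2 and BrM2 libraries. P2RY6, a receptor for UDP, fell by 3.73 in LM2 (edgeR adjusted p = 0.00450) and had a log2 fold change of -1.29 in BrM2 (edgeR adjusted p = 0.141, with the block 0.0217). P2RY6 was at 2.87 to 4.07 CPM in Par, 0.0766 to 0.490 in LM2 and 0.750 to 1.99 in BrM2. Its LM2 counts were 2 to 12, reaching below the floor of 3 counts, so the size of the fall in LM2 is uncertain. ENTPD3, an ecto-enzyme that degrades ATP, was at 1.06 to 2.26 CPM in Par, 0.845 to 1.46 in LM2 and 4.11 to 5.76 in BrM2, a rise of 1.62 in BrM2 on the log2 scale (edgeR adjusted p = 0.0149). NT5E (CD73), which makes adenosine from AMP, was called with the block only, higher in LM2 (0.70, edgeR adjusted p = 0.000538).

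The cGAMP pathway was examined because this second messenger can cross gap junctions. All 5 genes (CGAS, STING1, TBK1, IRF3 and ENPP1) passed the filter, and 0 were called by edgeR or by DESeq2 in any comparison. At an unadjusted p under 0.05, edgeR gave 0, 0 and 1 genes for LM2 and BrM2 against Par and BrM2 against LM2. With the block the numbers called were 0, 2 and 2 of 5, where 34.5%, 42.7% and 37.5% of all tested genes were called. TBK1 and ENPP1 were called lower in BrM2 than in Par. Against LM2, BrM2 had CGAS higher and TBK1 lower. TBK1 was at 29.9 ± 14.5 CPM in Par, 29.0 ± 16.5 in LM2 and 19.8 ± 13.4 in BrM2 (SD, n = 3). CGAS, the cytosolic DNA sensor, was at 38.9 ± 3.79 CPM in Par, 35.0 ± 2.25 in LM2 and 46.9 ± 6.86 in BrM2 (SD, n = 3), and was higher in BrM2 than in LM2 with the block (log2 fold change 0.42, edgeR adjusted p = 0.0174).

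Among other large-pore channels, 6 of 11 genes passed the filter, of which 1, 3 and 1 were called (5, 6 and 4 with the block), beside the same shares of all tested genes. LRRC8B and LRRC8C, subunits of volume-regulated anion channels, rose in BrM2 with log2 fold changes of 2.32 and 1.63 (edgeR adjusted p = 0.0144 and 0.0396). In LM2 they were 1.48 and 1.07 (edgeR adjusted p = 0.106 and 0.201, with the block 0.00282 and 0.000930). LRRC8B was at 2.78, 2.47 and 4.20 CPM in Par, 4.67, 9.87 and 11.9 CPM in LM2 and 7.23, 22.2 and 17.9 CPM in BrM2, with replicate 1 lowest in both metastatic lines. The obligatory subunit LRRC8A had log2 fold changes of -0.63 and -0.71 (edgeR adjusted p = 0.264 and 0.159, with the block 0.00384 and 0.00144). Of the calcium homeostasis modulators, CALHM2 fell by 1.44 in LM2 (edgeR adjusted p = 0.0379) on the log2 scale and CALHM3 fell by 2.18 in BrM2 (edgeR adjusted p = 0.0185).

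The genes most like each member over the 9 libraries were found by Pearson's correlation of log2 CPM among 11531 genes with a mean of at least 50 counts, as a description. For GJA1 these were CTCF (0.994), TSPAN12 (0.992) and PDE3B (0.991). With the mean of each replicate number taken out, they were RGS10 (0.997), CTCF (0.997) and SFPQ (0.996). CTCF, which organises chromatin loops, was at 82.4 ± 6.21 CPM in Par, 98.6 ± 9.29 in LM2 and 104 ± 11.9 in BrM2 (SD, n = 3), a much narrower range than that of GJA1. For PANX1 they were RSBN1 (0.992), ATG4A (0.986) and STARD9 (0.981), and with replicate means taken out NHLRC2 (0.991), TNKS2 (0.978) and RSBN1 (0.976). The 9 points share library and replicate effects.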

How the data were processed

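Per the labels and the paper's methods, mRNA was made into stranded libraries and read from both ends. The authors counted reads on genes after alignment to hg38 and deposited those counts unnormalized. The submitters' processing notes name CASAVA 1.8.2, STAR 2.7.0 and DESeq2. The strand counted is not given in the sources used here. A deposited table of the authors' DESeq2 fold changes and adjusted p-values against Par was not used. Samples were grouped by the line named in their labels.

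Of 58887 rows, 3 repeated an identifier with the same counts and were used once. A filter written after HTSFilter tried 100 thresholds from 1 to 200 and kept genes whose largest normalized count exceeded 47.15. The main test was the 2-sided quasi-likelihood test of edgeR 4.0.16 with TMM scaling on all 9 libraries, with line as the only term and Benjamini-Hochberg adjustment over the 13055 genes tested (threshold 0.05). PANX2 did not pass the filter, and its fold changes come from the same test on the 34056 genes with at least 1 count. CPM are counts scaled to the TMM-normalized library size, and log2 CPM used a prior count of 2. Without the replicate block, p-values measure the spread between the replicates of a line, which includes any shift shared by libraries of the same replicate number. With the block, they measure the spread left after that shift is taken out. Floors and counting limits cover counting error only.

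Replicate numbers in the labels are shared by the lines, but a batch shared by libraries of the same number is not stated in the sources. The deviations of log2 CPM from line means correlated at 0.23 to 0.90 in all 9 same-numbered pairs of libraries. Libraries with different numbers were not correlated, so the values do not show how far pairing by number holds. The main test did not use this pairing, and the fits with the replicate number as a block did. Without the replicate block the common dispersion was 0.110, and with it 0.0207.

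The members and gene lists were chosen with earlier results of these data known. The text names the members, other connexins and pannexins with more than 3 counts in a library, genes of the lists called with or without the block (at most 8 a list and comparison), cell type markers, and the 3 genes most like each tested member. Some genes that this rule selects are not reported here. TJP1 and the GJA1 to GJB2 ratio were chosen after their values were seen. One listed symbol was found under another symbol.

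Transcript length and GC came from GENCODE v44 lifted to GRCh37, another build than that of the counts, and positions and promoters from RefSeq GRCh38.p14. By 50-base stretches, 5.81% of GJA1 transcript sequence occurs in the pseudogene GJA1P1, counted 2 times at most in a library, and 0% of PANX1, PANX2 or GJB2 in another gene. No exon of these genes overlaps another gene. Scripts were tested on simulated data. Alternatives were RLE scaling, no filter, DESeq2 1.42.0, the replicate block, only the lines compared, and leaving out libraries. R 4.3.3, Python 3.11.15, pandas 2.3.3, scipy 1.17.1 and matplotlib 3.10.9 were used.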

Additional observations from a re-analysis of the deposited data

Results flagged for a closer look

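GJB2 differed between the metastatic lines under the same comparison with Par: its fall was larger in BrM2 than in LM2, and the test of that difference gave a log2 fold change of -1.50 (SE 0.217, edgeR adjusted p = 0.00328). All 3 replicate pairs showed this direction.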

How the results depend on the processing

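GJA1 kept its direction in all 18 alternatives of each comparison, but its call in BrM2 against Par held in 11 of 18, with an edgeR adjusted p of up to 0.381 (without replicate 2 of every line). Its log2 fold change in LM2 against Par passed the threshold in 6 of 18 alternatives, with an edgeR adjusted p of up to 0.652. Among the 6 were DESeq2 (1.53), no filter (1.50), and the replicate block in edgeR (1.50) and DESeq2 (1.54). In BrM2 against LM2 the log2 fold change passed in 3 of 18, with an edgeR adjusted p of up to 0.959. Among the 3 were the block in edgeR (0.50) and DESeq2 (0.49). When a library or a replicate number was left out, it ranged from 1.18 to 1.76 in LM2 and from 1.77 to 2.38 in BrM2 against Par, and from 0.27 to 0.88 in BrM2 against LM2. PANX1 and PANX2 passed in none of the alternatives run. Their direction turned when libraries were left out, with log2 fold changes for PANX1 of -0.28 to 0.011, -0.18 to 0.094 and -0.068 to 0.23, and for PANX2 of -1.13 to 0.21, -1.26 to 0.030 and -1.03 to 0.74, in LM2 and BrM2 against Par and BrM2 against LM2.

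The number of genes called was 1134, 1733 and 1057 in these comparisons. With the replicate block it was 4510, 5577 and 4896 in edgeR and 4608, 5575 and 4934 in DESeq2. DESeq2 without a block called 1893 genes in LM2 against Par, 2520 in BrM2 against Par and 1824 in BrM2 against LM2. With only the lines compared, BrM2 against LM2 gave 598. Leaving out libraries gave 70 to 4327, 159 to 5274 and 53 to 4257, where the highest is without replicate 1 and the lowest without replicate 2 of every line. With the block, 3 of 4 tested connexins were called in each comparison, where 34.5%, 42.7% and 37.5% of all tested genes were. Without it, 1, 3 and 1 of these connexins were called, where 8.69%, 13.3% and 8.1% of all tested genes were. The other calls with the block were 5, 8 and 7 of 12 connexin partners and 4, 3 and 4 of 12 kinases. They were also 5, 6 and 6 of 10 pannexin partners and purinergic genes, 0, 2 and 2 of 5 cGAMP genes, and 5, 6 and 4 of 6 other large-pore channels. For list genes called with or without the block, 1024 of 1314 values under alternatives kept their direction and call, 154 gained a call, 136 lost one and 0 reversed; the cause was not tested. Without length scaling, the share of GJB2 in Par was 54.9% and that of GJA3 was 18.7%, 19.1% and 16.4% in Par, LM2 and BrM2. Counts of 30 or fewer limit PANX2, GJC1 and GJB5.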
